A study of Mus musculus with 6 samples.

Results

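Transcripts of 8 genes of the Toll-like receptor system, Cd14, Ly96, Tlr2, Tlr4, Tlr5, Tlr7, Myd88 and Ticam1, were followed in 6 RNA-seq libraries of cultured mouse kidney cells labelled as primary renal fibroblasts. The table holds 22274 genes, and each of the 8 symbols matched 1 row. They cover Cd14, receptors of the cell surface and the endosome other than Tlr3, and the receptors' adaptors. The genes were chosen by symbol, with their counts in this same comparison already known from earlier work on these files, so their values in that comparison are given as a description. Fold changes, intervals and whether a gene passed the call over all genes are stated for them in that sense, with no p-value, and nothing is supported with them. TGF-β, the growth factor that activates fibroblasts, was present in every group at 5 ng/ml for 48 h. The control siRNA group (3 libraries) is labelled NC and wild type, and the series' design text names its treatment as scrambled siRNA. The Prune2 siRNA group (3 libraries) is labelled as a knockdown, and the labels name no other allele or agent. The siRNA sequences, the animals' strain and age, and whether replicates were separate cultures, are not stated in these sources. A p-value here therefore weighs a difference only against library-to-library spread, some of which may be technical. Cells without TGF-β are not part of the comparison.

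Toll-like receptors recognise conserved microbial molecules and signal to NF-κB, interferon regulatory factors and cytokine genes. Cd14, a membrane-anchored and also soluble protein, takes up lipopolysaccharide and passes it to Tlr4 and its bound partner Ly96. Tlr2 senses bacterial lipoproteins, Tlr5 senses flagellin, and Tlr7 senses single-stranded RNA inside endosomes. Myd88 is the adaptor that couples these receptors to kinases, and Ticam1 is the adaptor of Tlr3 and of internalised Tlr4. In the kidney, macrophages carry many of these receptors, while Tlr2, Tlr4 and Cd14 are also known in tubular epithelium and stromal cells.

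RefSeq promoter windows were at hand for 4 of the 8 genes (Tlr2, Tlr5, Myd88 and Ticam1), and the 3 with a motif match are printed because they belong to the most abundant of the receptors and to both adaptors. The 250 bases before each start were searched on both strands for an NF-κB consensus, the interferon-stimulated response element core GAAANNGAA, the PU.1 core GAGGAA and the AP-1 site TGANTCA. Stretches that an annotated exon covers are left out below, and capitals mark the matches. All are from GRCm38.p6 and read 5′ to 3′ on the gene's own strand, which is minus for each of the 3. The Tlr2 stretch is chr3:83841768-83841858, the Myd88 stretch is chr9:119340042-119340268 and the Ticam1 stretch is chr17:56276787-56277017.
Tlr2: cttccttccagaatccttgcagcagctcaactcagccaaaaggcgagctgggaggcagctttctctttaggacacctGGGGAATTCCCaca
Myd88: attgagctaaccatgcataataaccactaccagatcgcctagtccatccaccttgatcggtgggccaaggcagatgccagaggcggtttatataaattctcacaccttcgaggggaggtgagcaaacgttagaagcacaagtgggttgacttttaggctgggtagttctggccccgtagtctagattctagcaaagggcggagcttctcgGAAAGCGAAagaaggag
Ticam1: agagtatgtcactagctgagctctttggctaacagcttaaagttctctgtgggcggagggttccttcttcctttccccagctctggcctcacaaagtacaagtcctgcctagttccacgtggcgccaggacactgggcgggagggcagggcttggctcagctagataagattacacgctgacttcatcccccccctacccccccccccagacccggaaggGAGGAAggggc

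The Tlr2 window held the NF-κB consensus at 163 to 173 bases before the start, where the capitals cover 2 overlapping matches on the gene's strand, one of which, GGGAATTCCC, is a palindrome and so also matches on the other strand. The Myd88 window held the response element core at 32 to 40 bases before the start, and the Ticam1 window held the PU.1 core at 25 to 30 bases. The Tlr5 window held none of the 4 motifs. Over 32851 promoter windows of the same length, 7.25% held the NF-κB consensus, 7.13% the response element core, 23.3% the PU.1 core and 6.75% the AP-1 site. These matches describe letters and not binding. The Myd88 stretch lies inside the GENCODE span of the gene, which starts further upstream than the RefSeq model. The other 2 lie just outside their genes' GENCODE spans. For Tlr2 the 159 bases next to the RefSeq start were left out as exonic, so its match lies close to the GENCODE start.

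Library totals ran from 20075265 to 23234797 counts. Prune2 was partly depleted, with counts of 133, 157 and 150 under control siRNA and 80, 73 and 104 with Prune2 siRNA (log2 fold change -0.87, SE 0.15, edgeR adjusted p = 0.000214). The authors' deposited table gives -0.48 for Prune2, from mean FPKM of 1.18 and 0.847. The length implied by count and FPKM was 5874 ± 159 bases under control siRNA against 4492 ± 537 (SD, n = 3), and limma on FPKM gave -0.24 and -0.43 and did not call it. Over the 13248 genes that passed the filter on low counts, 10.3% were called at an adjusted p under 0.05, 4.46% higher and 5.83% lower with Prune2 siRNA, and groups did not overlap for 24.3%. Markers of several cell types were present. Of 12 fibroblast markers, Fn1 and Vim had the highest levels, at 26295 and 570 CPM (counts scaled to library size) under control siRNA. The other 10, given after their values were seen, ran from Col1a1 at 236, Col1a2 at 86.0, Pdgfrb at 19.7, Col3a1 at 15.7, Postn at 15.2 and Pdgfra at 5.02 CPM down to S100a4 at 0.920, Thy1 at 0.594, Dcn at 0.281 and Lum at 0.0435 CPM. Epithelial markers were high: Krt8 and Krt18 averaged 2420.3 and 1286 CPM under control siRNA, and Epcam, also singled out afterwards, 428 CPM. The summed level of 20 macrophage markers, led by Cd74 and Lyz2, lay between 239 and 295 CPM under control siRNA and between 54.2 and 58.9 CPM with Prune2 siRNA (exact two-sided permutation p = 0.1, the smallest that 3 against 3 can give). All 20 were called lower, beside 5.83% of all tested genes, and none of them was at 0 in all libraries. Of 10 tested fibroblast markers 5 were called lower (median log2 fold change -0.22), and so were 5 of 10 endothelial markers (median -0.47). That is 50% of each list, beside 5.83% of all tested genes called lower. The marker lists, here and below, were chosen with earlier results of these data known, so their shares and the permutation p are descriptions. Of 10 T cell, B cell and neutrophil markers none passed the filter. Their sum was 0.174 to 0.342 CPM under control siRNA and 0.0427 to 0.305 CPM with Prune2 siRNA, and Cd3e, Cd3g, Nkg7 and S100a9 were at 0 in all 6 libraries.

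Between genes, levels were compared as deposited FPKM, which scales fragments to transcript length. In the control libraries Tlr2 stood highest at 11.2 ± 0.394 FPKM (SD, n = 3), and its 3 values of 11.32, 11.52 and 10.76 all lay above any value of the other 7 genes. Myd88 followed at 8.31 ± 0.494 FPKM and Ticam1 at 5.21 ± 0.199 FPKM. Cd14 at 4.58 ± 0.210 FPKM and Tlr4 at 4.53 ± 0.134 FPKM overlapped, so their order is not resolved. Ly96 followed at 3.76 ± 0.670 FPKM. Tlr5 and Tlr7 were far lower, at 0.730 ± 0.0800 and 0.390 ± 0.187 FPKM, or 6.52% and 3.48% of the Tlr2 level. Apart from Cd14 and Tlr4, no neighbours in this order overlapped under control siRNA. With Prune2 siRNA the same order held by mean except that Cd14, at 5.23 ± 0.620 FPKM, stood beside Ticam1 at 5.16 ± 0.145 FPKM, and the ranges of Ticam1 and Cd14, of Cd14 and Tlr4, and of Tlr4 and Ly96 overlapped there.

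**Figure D1:**
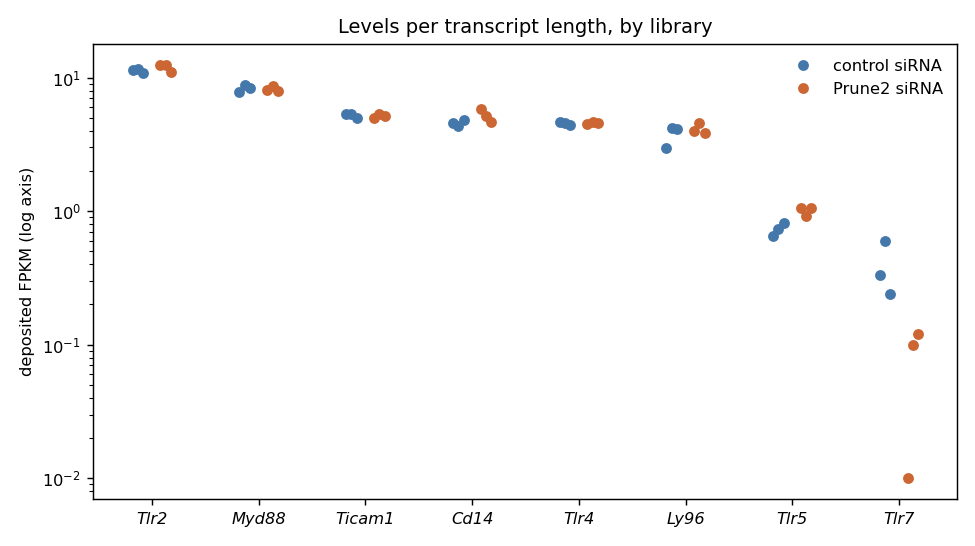
Deposited FPKM (log axis) of each gene in the 3 control siRNA libraries (blue) and the 3 Prune2 siRNA libraries (orange), 1 point per library, ordered by the control mean. Tlr2 is highest in all 6 libraries, and Tlr7 is lowest, with its 3 Prune2 siRNA points at 0.01, 0.1 and 0.12 FPKM below its control points at 0.24 to 0.60.

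The length implied by count and FPKM was steady for 6 of the 8 genes, with an SD of at most 4.3 bases in a group. For Tlr5 it came to 3394 ± 111 (control siRNA) and 3311 ± 123 (Prune2 siRNA) bases and for Tlr7 to 3683 ± 195 and 3934 ± 694 bases (SD, n = 3). FPKM is given to 2 decimals, which is coarse for the lowest Tlr7 value of 0.01. The source of the rest of this spread was not tested. The groups are therefore compared below in counts and in CPM after TMM scaling. From here on, ratios between genes in FPKM are given only for genes with a steady length. The shares of the Tlr2 level given above for Tlr5 and Tlr7 are approximate.

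Of the 8 genes, all of which passed the filter on low counts, 1 was called by edgeR between the groups, Tlr7, which was lower (12.5%, beside 5.83% of all tested genes called lower). Groups did not overlap in CPM for Tlr5 and Tlr7, 2 of the 8, beside 24.3% of all tested genes. Since the genes were chosen with this comparison known, nothing is read from these shares. Tlr7 passed the filter through its control levels. The median log2 fold change of the 8 was 0.05, beside 0.00 for all tested genes.

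**Figure D2:**
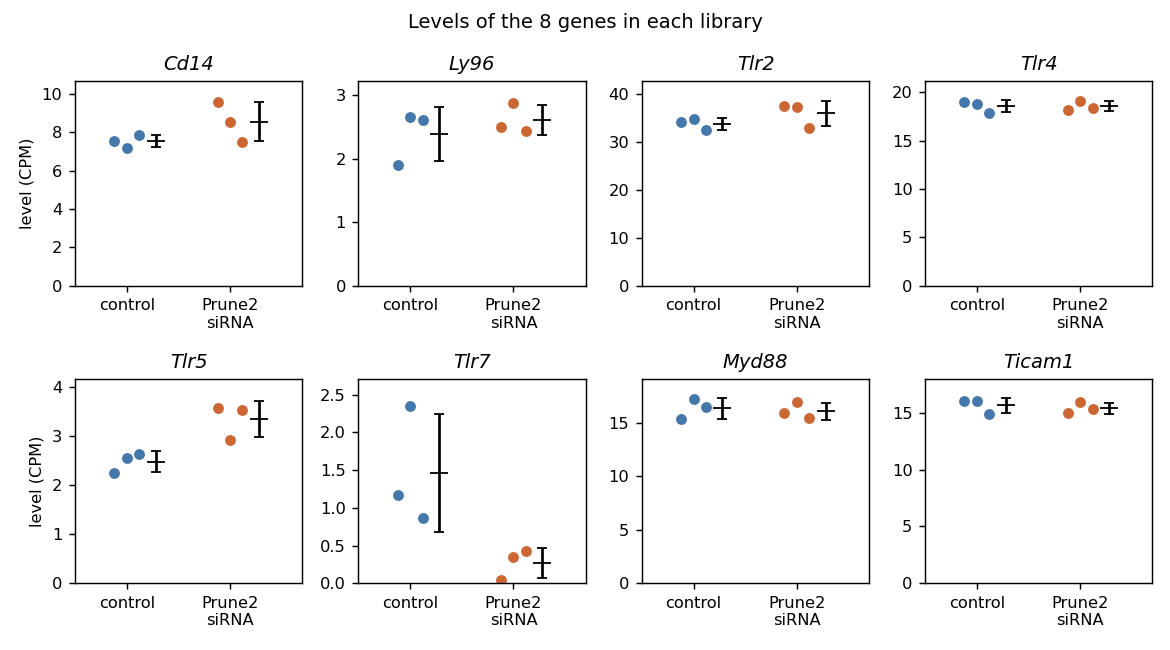
Level (CPM, axes from 0) of each of the 8 genes in every library, with control siRNA in blue and Prune2 siRNA in orange; the bar beside each group is its mean ± SD (n = 3). Groups overlap in 6 panels, Tlr5 points with Prune2 siRNA (2.92 to 3.59) lie above the control points (2.25 to 2.65), and Tlr7 points (0.0472 to 0.427) lie below them (0.869 to 2.35).

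Cd14 (ENSMUSG00000051439; GRCm38 chromosome 18, 36725067 to 36726798, minus strand), which hands lipopolysaccharide to Tlr4, had counts of 155, 144 and 181 under control siRNA and 203, 196 and 176 with Prune2 siRNA. In CPM these were 7.57, 7.20 and 7.86 against 9.58, 8.55 and 7.52. Prune2 siRNA replicates 1 and 2 lay above all control libraries and replicate 3 lay within their range, so the groups overlapped. This gave a log2 fold change of 0.18 (SE 0.12, 95% interval -0.07 to 0.42), which was 0.09 without Prune2 siRNA replicate 1 and 0.26 without replicate 3. Although Cd14 is widely used as a monocyte and macrophage marker, its value lay outside the range of the 20 macrophage markers, which ran from -4.19 to -1.09.

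Ly96 (ENSMUSG00000025779; chromosome 1, 16688051 to 16709611, plus strand), the extracellular partner that lets Tlr4 bind lipopolysaccharide, was the least abundant gene of this recognition complex. Its counts were 39, 53 and 60 under control siRNA and 53, 66 and 57 with Prune2 siRNA. Control replicate 1 was the lowest library at 1.90 CPM, and the other 5 lay between 2.43 and 2.88 CPM. The log2 fold change of 0.12 (SE 0.21, 95% interval -0.31 to 0.56) became -0.01 without control replicate 1, so its sign rests on that library. The ratio of Cd14 to Ly96 FPKM was 1.53, 1.05 and 1.16 under control siRNA and 1.48, 1.13 and 1.19 with Prune2 siRNA, and these ranges overlapped.

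Tlr4 (ENSMUSG00000039005; chromosome 4, 66827584 to 66930284, plus strand), the lipopolysaccharide receptor itself, was the steadiest of the receptors. Its levels were 19.0, 18.8 and 17.9 CPM under control siRNA and 18.2, 19.1 and 18.4 CPM with Prune2 siRNA, from 376 to 438 counts a library. Its log2 fold change was 0.00 (SE 0.07), and the 95% interval of -0.15 to 0.15 shows how large a change these libraries could have left unseen.

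Tlr2 (ENSMUSG00000027995; chromosome 3, 83836272 to 83841767, minus strand), the lipoprotein receptor whose promoter stretch with the NF-κB consensus is printed above, had the deepest counts of the 8. They were 703, 697 and 747 under control siRNA and 796, 858 and 773 with Prune2 siRNA. The levels were 34.3, 34.8 and 32.5 CPM against 37.6, 37.4 and 33.0 CPM, with Prune2 siRNA replicate 3 inside the control range. The log2 fold change was 0.09 (SE 0.06, 95% interval -0.04 to 0.22). Measured against Tlr4 in the same library, Tlr2 FPKM was 2.47 ± 0.0346 times as high under control siRNA and 2.62 ± 0.186 times as high with Prune2 siRNA (SD, n = 3).

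Tlr5 (ENSMUSG00000079164; chromosome 1, 182954788 to 182976044, plus strand), the flagellin receptor, had counts of 46, 51 and 61 under control siRNA and 76, 67 and 83 with Prune2 siRNA. Each Prune2 siRNA library lay above each control library, at 3.59, 2.92 and 3.55 CPM against 2.25, 2.55 and 2.65 CPM. That is a log2 fold change of 0.43 (SE 0.19), a difference that did not pass the call over all genes, and the value ranged from 0.22 to 0.52 over 13 alternative settings, none of which called it. In the same libraries 4 of 11 tested tubular epithelial markers were called higher and 2 lower (54.5% called, beside 10.3% of all tested genes). Their summed level was 5858 to 6010 CPM under control siRNA and 5432 to 5896 CPM with Prune2 siRNA, Aqp2 was at 0 in all 6 libraries, and the part of these cells in the Tlr5 values was not tested.

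Tlr7 (ENSMUSG00000044583; chromosome X, 167304929 to 167330558, minus strand), the endosomal receptor of single-stranded RNA, was the rarest of the 8 and differed most. Its counts were 24, 47 and 20 under control siRNA and 1, 8 and 10 with Prune2 siRNA. All 3 control libraries lay above all 3 Prune2 siRNA libraries, although control replicate 2 stood at 2.35 CPM and the other control libraries at 1.17 and 0.869 CPM. The mean went from 1.46 ± 0.782 to 0.274 ± 0.201 CPM (SD, n = 3). The log2 fold change was -2.34 (SE 0.47, 95% interval -3.32 to -1.37). It was -1.83 without control replicate 2 and -1.88 without Prune2 siRNA replicate 1. Summed over libraries, 91 control counts stood against 19, a 5.09-fold difference after scaling, with an exact 95% interval of 3.08 to 8.85 that covers counting error only. The authors' deposited table gives a log2 fold change of -2.35 for Tlr7, and for the other 7 genes values from -0.01 to 0.47. On log2(FPKM + 1), a scale that compresses low genes, limma gave -0.36 and did not call it.

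Tlr7 lay within the range of the macrophage markers, whose median log2 fold change was -2.58, and the 7 other genes lay above that range. The summed level of these markers (239 to 295 CPM against 54.2 to 58.9 CPM) moved with Tlr7, and its part in the Tlr7 value was not tested. In such bulk libraries fewer cells of a type and less RNA per cell cannot be told apart.

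Myd88 (ENSMUSG00000032508; chromosome 9, 119335934 to 119341411, minus strand), the adaptor shared by most Toll-like receptors and the interleukin-1 receptors, had counts of 314, 344 and 380 under control siRNA and 337, 389 and 361 with Prune2 siRNA. Its levels overlapped, at 15.3, 17.2 and 16.5 CPM against 15.9, 17.0 and 15.4 CPM. The log2 fold change was -0.02 (SE 0.08, 95% interval -0.19 to 0.15). The gene shares 290 exonic bases, 11.3% of its own, with Acaa1a on the opposite strand, and whether the counting used strand is not stated in these sources, so reads in that stretch are uncertain. Acaa1a stood at 37.9 ± 1.42 and 38.1 ± 1.34 CPM (SD, n = 3).

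Ticam1 (ENSMUSG00000047123; chromosome 17, 56269319 to 56276786, minus strand), the adaptor that leads to interferon regulatory factors, also overlapped between the groups. Its counts were 328, 320 and 343 under control siRNA and 317, 365 and 358 with Prune2 siRNA, or 16.0, 16.0 and 14.9 CPM against 15.0, 15.9 and 15.3 CPM. The log2 fold change was -0.02 (SE 0.08, 95% interval -0.19 to 0.14). The ratio of Myd88 to Ticam1 FPKM was 1.60 ± 0.121 under control siRNA and 1.60 ± 0.0489 with Prune2 siRNA (SD, n = 3).

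The genes most like each of the 8 across the 6 libraries were found by the root-mean-square difference of mean-centred log2(CPM + 0.5), over 12287 tested genes with at least 1 CPM. Nearest to Tlr7 were Slc11a1 (0.244), Gp49a (0.261) and Runx3 (0.265), with log2 fold changes of -1.99, -2.43 and -2.23. Nearest to Tlr4 were Tnpo3 (0.0091), RSBN1L (0.0101) and Abhd2 (0.0103), spelled as in the table, and Tlr4 itself was among the 3 nearest to Ticam1 (0.0148). Nearest to Tlr5 were Flrt3 (0.0442), Steap3 (0.0517) and Lix1 (0.0538), and nearest to Cd14 were KCTD21 (0.0278), ZNF764 (0.0279) and Gpr157 (0.0349). These are descriptions over 6 libraries of 2 groups. The nearest genes were picked from 12287, counting noise was not weighed, and nearness is not read as shared regulation.

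The receptors and co-receptors outside the 8 moved in both directions. Like the 8 genes, this list and the pathway lists below were chosen with earlier results of these data known. Their values, adjusted p-values included, are therefore descriptions, and nothing is supported with them. Of 13 tested of 16 listed, 7 fell and 2 rose (69.2% called, beside 10.3% of all tested genes). The median log2 fold change was -0.73, beside 0.00 for all tested genes. Tlr12, Ly86, Cd180 and Tlr8 averaged 0.205, 0.0576, 0.167 and 0.145 CPM with Prune2 siRNA and passed the filter through their control levels. So did Cd36 and Tlr13, which averaged 0.324 and 0.423 CPM with Prune2 siRNA. The number of falls and the median therefore rest in part on the filter. By adjusted p the first of the falls was Tlr13, the mouse receptor for bacterial ribosomal RNA, which went from 2.59 ± 0.695 to 0.423 ± 0.203 CPM (SD, n = 3). Its edgeR log2 fold change was -2.57 (SE 0.34, adjusted p = 4.93e-06). Tlr12, a sensor of parasite profilin, fell by 2.93 (SE 0.40) on the log2 scale. Ly86, the partner of the B cell and macrophage receptor Cd180, had 60 summed control counts against 4 (log2 fold change -3.87, SE 0.58, edgeR adjusted p = 3.12e-05). Cd180, Tlr8, the scavenger receptor Cd36 and the receptors' chaperone Hsp90b1 were the other 4 that fell, at -2.32, -2.25, -1.64 and -0.16. Hsp90b1 lost its call without control replicate 2 and without Prune2 siRNA replicate 3, and in both limma fits on FPKM (adjusted p up to 0.0646 over 13 alternatives). Cd36 lost its call in 1 of the 13 (adjusted p up to 0.0746). These falls stood beside the lower summed level of the 20 macrophage markers, whose part in them was not tested.

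The receptor genes that rose were Lbp and Tlr3. Lbp, the secreted protein that delivers lipopolysaccharide to Cd14, went from 3.47, 4.05 and 3.74 CPM under control siRNA to 6.13, 6.76 and 6.92 CPM (log2 fold change 0.82, SE 0.14, edgeR adjusted p = 0.000205). Its call was lost in both limma fits on FPKM (adjusted p up to 0.0645 over 13 alternatives). Tlr3, the endosomal receptor of double-stranded RNA that signals through Ticam1, went from 42.0 ± 0.374 to 47.8 ± 1.94 CPM (SD, n = 3). Its edgeR log2 fold change was 0.19 (SE 0.05, adjusted p = 0.0199). Tlr3 was called in 7 of 13 alternatives (adjusted p from 0.0147 to 0.138). The call was lost with DESeq2, with both limma fits on FPKM, and without control replicate 1, control replicate 2 or Prune2 siRNA replicate 3. Unc93b1, which escorts endosomal receptors including Tlr7, stood at 28.8 ± 0.986 and 30.0 ± 0.268 CPM (SD, n = 3) and was not called. The possible partners of Tlr2 were scarce: Tlr1 had 48 summed control counts against 6 and did not pass the filter, and Tlr6 had 47 against 30 and was not called. Tlr1 and Tlr6 are close paralogs, so the split of reads between them is uncertain. Tlr9 had 7 and 10 summed counts and Tlr11 1 and 0.

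**Figure D3:**
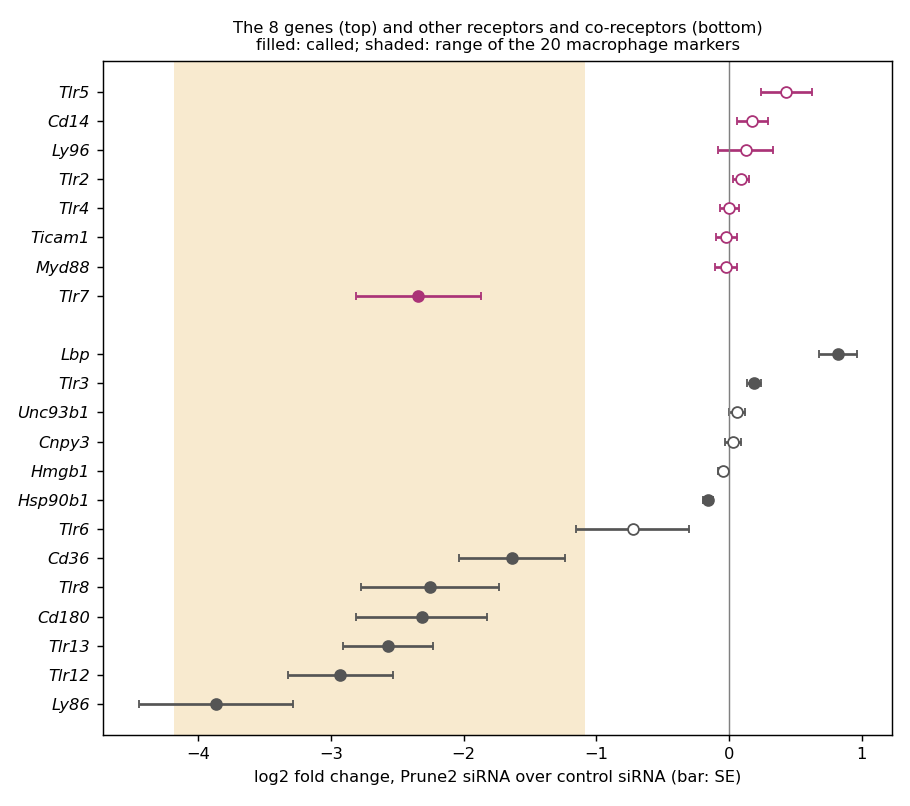
Log2 fold change (Prune2 siRNA over control siRNA, x axis; bars are SE) of the 8 genes in the upper block and of the 13 tested receptors and co-receptors outside them in the lower block, with called genes filled and the range of the 20 macrophage markers shaded. Tlr7, Tlr13, Tlr12, Tlr8, Cd180, Ly86 and Cd36 lie in the shaded range, and the other 7 of the 8 genes lie near 0 or, for Tlr5, at 0.43.

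Of 26 tested downstream adaptors and kinases (28 listed), 5 fell and 1 rose, 23.1% called beside 10.3% of all tested genes, with a median log2 fold change of -0.01. Irf7, an interferon-induced factor that acts below Tlr7 and Myd88, was the gene that rose, from 34, 64 and 28 counts under control siRNA to 250, 173 and 158 counts (log2 fold change 2.12, SE 0.24, edgeR adjusted p = 4.25e-07). The falls were Pik3ap1, an adaptor of phosphoinositide 3-kinase, at -1.46, Irf5, a factor of inflammatory cytokine genes, at -0.98, the tyrosine kinases Syk and Btk at -0.70 and -2.53, and Traf3 at -0.16. With limma on FPKM the calls of Syk and Traf3 were lost at both pseudocounts (adjusted p up to 0.0738 and 0.064) and that of Irf5 at 1 of them (0.0542). Btk averaged 0.147 CPM with Prune2 siRNA and passed the filter through its control levels. The macrophage marker sum was lower in the same libraries, and its part in these falls was not tested. Tirap, the bridge between Myd88 and Tlr2 or Tlr4, stood at 36.7 and 36.8 CPM and was not called, and Ticam2, the bridge between Ticam1 and Tlr4, had 22 and 19 summed counts and did not pass the filter.

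Of 16 negative regulators, all tested, none was called by edgeR, DESeq2 or limma, and 1 had an unadjusted edgeR p under 0.05. With 10.3% of all tested genes called, a count of 0 among 16 is close to the background and is not read as a trait of this list. Their log2 fold changes ran from -0.38 to 0.21, with Tnfaip3, the ubiquitin-editing inhibitor of NF-κB, at 143 CPM in both groups.

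Genes that receptor signalling can induce moved in both directions. Of 14 tested of 24 listed, 5 rose and 2 fell (50% called, beside 10.3% of all tested genes), with a median of -0.01. Il1b and Il1a fell, by 3.49 and 3.20 on the log2 scale, in the libraries with lower macrophage markers, while Lcn2 (0.62), Cxcl10 (0.70), Ccl2 (0.41), Icam1 (0.26) and Ccl5 (1.34) rose. Ccl5 averaged 0.284 CPM under control siRNA and passed the filter through its Prune2 siRNA levels. The calls of Icam1 and Ccl5 were lost in most alternatives (called in 6 and 4 of 13), and Ccl2 lost its call in both limma fits on FPKM and without control replicate 3 or Prune2 siRNA replicate 1. Tnf, at 2.64 and 2.29 CPM, and Il6, at 0.566 and 0.832 CPM, were not called.

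Over these 4 lists 69 genes were tested, of which 14 fell and 8 rose, 31.9% called beside 10.3% of all tested genes. Since the lists were chosen with earlier results of these data known, nothing is read from this share. Leaving out control replicate 3, or Prune2 siRNA replicate 1 or 3, brought the number that rose from 8 to 5. In the pathway annotation of the deposited table, looked up after the values were seen and sharing genes with these lists, the Toll-like receptor pathway without the 8 genes held 69 tested genes, of which 7 rose and 8 fell. That is 21.7% called, beside 10.3% of all tested genes.

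**Figure D4:**
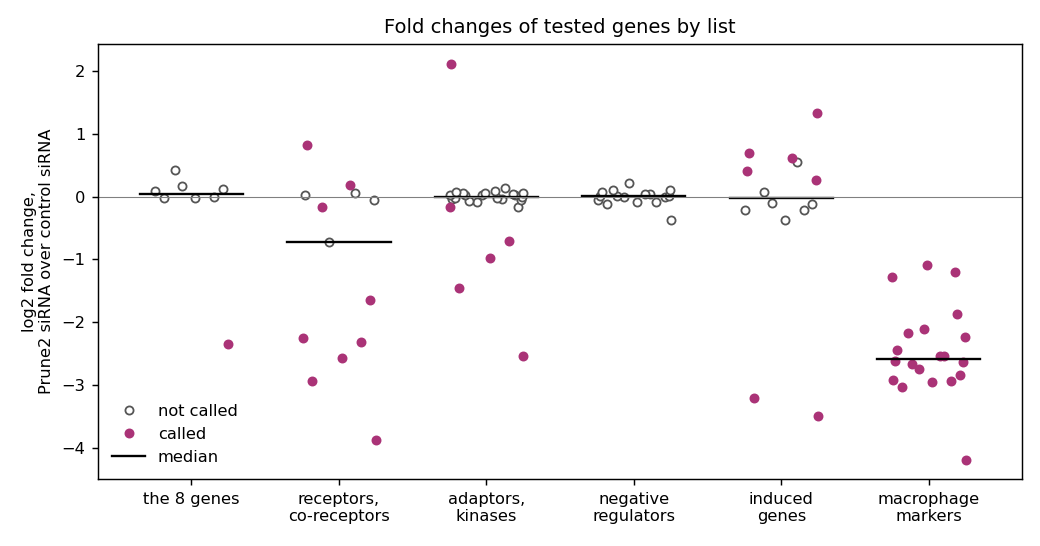
Log2 fold change (y axis) of every tested gene in the 8 genes described here, the 4 lists of the receptor pathway and the 20 macrophage markers, 1 point per gene, with called genes filled and the line at the list's median. The macrophage markers all lie between -4.19 and -1.09, and the negative regulators lie between -0.38 and 0.21.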

How the data were processed

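RNA from 3 control siRNA and 3 Prune2 siRNA libraries was analysed from 1 deposited table. It holds read counts per gene and FPKM values, per the file headers, with the authors' mean FPKM, log2 fold change, p-value and adjusted p-value. Builds GRCm38 and mm10 come from the submitters' processing notes. Not given in the sources used here are the aligner, the counter and the strand setting. Groups and replicate numbers come from the sample titles, and columns were matched to them by name.

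The main test was edgeR's quasi-likelihood F-test on counts (version 4.0.16, R 4.3.3) after TMM scaling and filterByExpr, with Benjamini-Hochberg adjustment over 13248 genes. Called means an adjusted p below 0.05. Standard errors were obtained as log2 fold change over the square root of F. The procedure was tested on simulated data. DESeq2 1.42.0 and limma 3.58.1 gave alternatives. CPM divides counts by TMM-scaled library sizes. Replicate libraries differed by chi-square values of 2.57 to 3.92 per degree of freedom, above sampling noise. Positions and exons are from GENCODE M21, which held 22219 of the 22274 identifiers. Motifs were searched in RefSeq promoter windows of GRCm38.p6. Map3k7 was listed but is spelled MAP3K7 in the deposited data, so it was not counted in the adaptor list. It was tested and not called (log2 fold change -0.004).

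The 8 genes, the lists and the markers were chosen with earlier results of these data known. All 8 genes and Prune2 are named. Per pathway list, the called genes with the smallest adjusted p, at most 3 each way, are named, with others to resolve small counts or give a receptor's level, and per marker list up to 2 with the highest level. The nearest 3 genes by the likeness measure were found for each of the 8.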

Additional observations from a re-analysis of the deposited data

How the results depend on the processing

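Of 13 alternatives (RLE and upper-quartile scaling, no filter, DESeq2, limma on FPKM with 2 pseudocounts, the replicate block and leaving out each of the 6 libraries), none called Cd14, Ly96, Tlr2, Tlr4, Tlr5, Myd88 or Ticam1. Tlr7 was called lower in 12, at -2.80 to -1.47, and missed the call with limma on log2(FPKM + 1) at -0.36, which left 0 of the 8 genes called lower. The same fit gave -0.24 for Prune2, and limma on log2(FPKM + 0.1) gave -0.43, both not called. These fits change unit and test together, and the cause was not tested. Over all genes they called 772 (340 higher, 432 lower) with a pseudocount of 1 and 777 (340 higher, 437 lower) with 0.1, against 1364. Pathway genes called higher numbered 8 in the results above, 5 with DESeq2, 4 with limma at either pseudocount, and 5 to 6 when a library was left out. The sign of the uncalled value changed in 1 alternative for Ly96, 3 for Tlr4 and 2 for Myd88.

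Replicate numbers are shared by the groups, but the labels do not say that they pair the samples. Deviations from the group means correlated at 0.05, -0.01 and 0.03 across genes for equal numbers, and not every library correlated best with its own number. The replicate block called 1490 genes and gave -2.34 for Tlr7. Depth limits Tlr7 most, with 1 to 47 counts a library, followed by Ly96 and Tlr5 with 39 to 83.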
